A study of Drosophila melanogaster with 13 samples.

Results

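At 1139 places in the Drosophila genome, Abd-B and Ubx in the presence of Hth each gave a ChIP-Seq peak in the stringent lists of the study, while the stringent lists of Ubx without Hth and of Abd-A held none. These sites were chosen by their peak calls. A member is an Abd-B peak at a q-value of 1e-10 that has a partner among the Ubx+Hth peaks at the same q-value and has no partner among the stringent peaks of Ubx in Experiment 1, Ubx in Experiment 2 or Abd-A. A partner is a peak that overlaps by at least 5% of the length of both peaks. The 1139 members made up 11.8% of the 9681 stringent Abd-B peaks (Wilson 95% interval 11.1 to 12.4%, which covers the counting of peaks only). The absence of a partner refers to the stringent lists alone, and 1032 members had a Ubx or Abd-A partner in the relaxed lists called at a q-value of 1e-2. The members are therefore described below as shared sites by their stringent calls, not as sites that only Abd-B and Ubx+Hth occupied.

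All peaks come from Kc167 cells, a line derived from Drosophila embryos that does not express Hth, transiently transfected with a Hox protein fused to GFP under the inducible metallothionein promoter. The cells were sorted for GFP 4 h after induction, and chromatin was precipitated with an anti-GFP antibody. Experiment 1 held Ubx, Abd-A and Abd-B with 36 bp reads, and Experiment 2 held Ubx, a mutant Ubx with substituted DNA-contact residues in its homeodomain, and Ubx made together with Hth from 1 bicistronic vector, with 100 bp reads. There were 2 biological replicates of each condition except Ubx of Experiment 2, which had 1, and they were combined before peaks were called against the input of Experiment 1, so no value here carries a replicate error and no test between conditions was possible. The transiently expressed fusion proteins, in cells sorted to a similar level of GFP, are a model of binding in a single cell type, and no gene expression was measured.

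Ubx, Abd-A and Abd-B are the Hox proteins of the bithorax complex and specify the identity of the segments of the posterior thorax and the abdomen. Their homeodomains recognise short AT-rich sequences that differ little between family members. Extradenticle (Exd) and Homothorax (Hth), homeodomain proteins of the TALE class, bind DNA together with Hox proteins and sharpen their choice of sequence. Exd enters the nucleus only where Hth is present, so the vector that supplies Hth makes both cofactors available to Ubx.

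Among the 15 combinations of partners seen for Abd-B peaks, the pairing with Ubx+Hth and no other list was the third most common. It followed Abd-B with no partner (3111 peaks, 32.1%, called Abd-B alone here) and Abd-B with a partner in all 4 other lists (3103 peaks, 32.1%). The next combination, with Ubx+Hth, Ubx of Experiment 1 and Abd-A, held 780 peaks. The members were 26.8% of the 4250 Abd-B peaks that lacked partners in the stringent Ubx and Abd-A lists. Counted from the other side, 1374 Ubx+Hth peaks met the same rule with the roles exchanged, which was 17.2% of the 7971 Ubx+Hth peaks and 61.8% of the 2223 without a Ubx or Abd-A partner. The other 849 of those 2223 had no Abd-B partner and are called Ubx+Hth alone. These counts follow from the rule and the lengths of the lists, and with each of the 5 lists cut to its 4218 highest-scoring peaks only 139 members were left.

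The members paired with 1168 Ubx+Hth peaks in 1175 pairs. There were 26 members with 2 partners, 5 with 3, and 7 partners that served 2 members. Of the partner peaks, 1151 lacked a Ubx and Abd-A partner themselves and 17 (1.46%) had one. Where a member had several partners, the one with the largest reciprocal overlap was used for its values.

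The members lay mostly in the weaker parts of both lists. Each peak has a score, the −log10 of the q-value it was called with, and scores were ranked within a list because they are not comparable between lists of unequal depth. Abd-B scores of members ran from 10.5 through a median of 52.3 to 359, against a median of 68.0 for all Abd-B peaks, 41.0 for Abd-B alone and 118 for the peaks with all 4 partners. The scores of the Ubx+Hth partners ran from 10.0 through 29.8 to 315, against a median of 50.1 in the whole list and 31.3 for Ubx+Hth alone. As a rank, the median member stood 63.2% of the way down the Abd-B list (quartiles 42.2 and 81.2%), and the median partner 75.6% down the Ubx+Hth list (quartiles 56.7 and 89.2%). The peaks with all 4 partners had a median rank of 24.0% in the Abd-B list, and Abd-B alone 73.9%. Ubx+Hth alone had a median rank of 73.2% in the Ubx+Hth list, so low ranks were not particular to the members. The exclusion of stringent Ubx and Abd-A peaks is part of the rule, so these positions describe the set and are not tests.

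The density of members changed along each list. With the Abd-B list divided by score into 5 quintiles, the number of members from the strongest to the weakest was 116, 150, 257, 311 and 305, which is 5.99% of the peaks in the strongest quintile and 15.8% in the weakest. Along the Ubx+Hth list the partners numbered 61, 93, 184, 337 and 493 from the strongest to the weakest quintile. The number thus rose at each step along the Ubx+Hth list and levelled off at the weak end of the Abd-B list.

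The ranks in both lists were only weakly related. There were 56 members (4.92%) in the top 10% of the Abd-B list and 29 with a partner in the top 10% of the Ubx+Hth list, and 4 of those 29 (13.8%) were in the top 10% of both. In the top 50% the numbers were 370 (32.5%), 227 and 86, the last being 37.9% of the 227. Across the 1139 members the scores in both lists had a Spearman correlation of 0.12 (Pearson 0.08), whereas across the 3103 peaks with all 4 partners it was 0.47 (Pearson 0.50). These correlations are over peaks, which share the input library, and the range of scores differed between both sets.

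**Figure D1:**
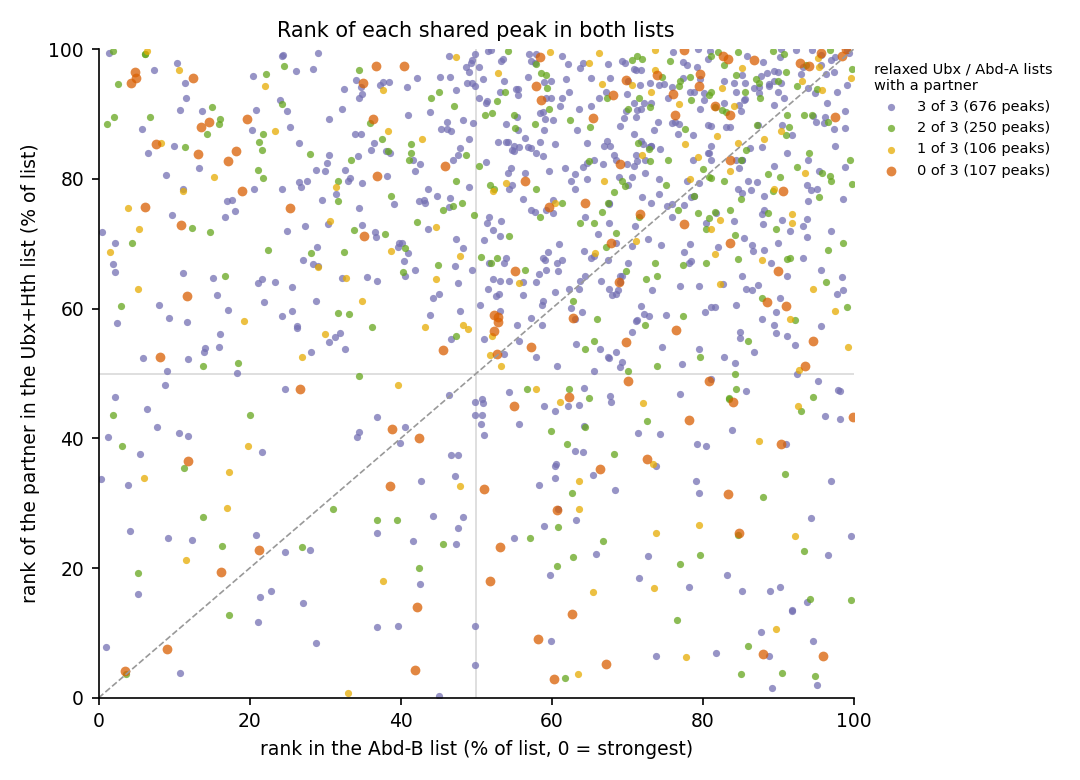
Each point is 1 of the 1139 members, placed by its rank in the Abd-B list (x axis, % of the list, 0 strongest) and the rank of its partner in the Ubx+Hth list (y axis, %), and coloured by how many of the 3 relaxed Ubx and Abd-A lists held a partner. The points crowd into the upper right, where both ranks are below the middle of their lists, and 86 points lie at the lower left, above the middle of both.

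The members with the smallest sum of both ranks show what the strongest shared sites look like. On 3R at 5940884 to 5943362 (BDGP release 5 coordinates, as for all positions here), the Abd-B score was 255 (rank 354) and the Ubx+Hth score 216 (rank 290). Relaxed peaks of Ubx in Experiment 1 (score 14.9) and Abd-A (15.3) covered part of it, and Ubx of Experiment 2 and mutant Ubx had none. On X at 14807860 to 14808721, Abd-B reached 327 (rank 88) and Ubx+Hth 171 (rank 622). Its relaxed scores were 12.4 and 12.5 for Ubx in both experiments and 29.0 for Abd-A, and mutant Ubx had no peak. The Ubx peaks stood 67.1 and 58.3% of the way down their relaxed lists and the Abd-A peak 38.5%. At 2L 14534092 to 14535329, Abd-B scored 259 (rank 334) and Ubx+Hth 209 (rank 332), and none of the other 4 lists held a relaxed peak. The 2 midpoints of that site lay 19.5 bp apart, so this is a site of nearly equal rank in both lists with no call for Ubx without Hth, Abd-A or mutant Ubx at either threshold.

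The other members among the 10 smallest rank sums carried relaxed calls to varying degrees. On 2L at 12531983 to 12533711 the Abd-B score was 230 and the Ubx+Hth score 120, with relaxed scores of 19.8 and 10.9 for Ubx in Experiments 1 and 2 and 24.6 for Abd-A. On 2L at 9142157 to 9143717 the scores were 230 and 107, with 16.0 for Ubx in Experiment 1, 18.3 for Abd-A and no call for Ubx in Experiment 2. On 3R at 18965811 to 18966508 they were 141 and 136, with a relaxed call for Ubx in Experiment 2 (7.94) and Abd-A (7.19) but not for Ubx in Experiment 1. On 2R at 12969667 to 12971051 they were 176 and 214, and all 3 relaxed lists had a partner, up to 21.1 for Abd-A. The 2R peak at 8529711 to 8530462, with scores of 188 and 173, had no relaxed partner. At 2R 12720848 to 12721546, with 246 and 89.1, all 4 relaxed lists had a partner, the mutant with a score of 3.79. So among the 10 smallest rank sums, 2 members had no relaxed call at all and 1 had a call from mutant Ubx.

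Most of the 3 best-ranked members of each list were unequal sites, apart from the X site given above (Abd-B rank 88, Ubx+Hth rank 622). The best Abd-B rank among members was 31, at 3R 19845320 to 19846701, with a score of 359, but its Ubx+Hth partner scored 72.5 (rank 2693). The next, at 3L 7785422 to 7786780, had an Abd-B score of 352 (rank 40) beside a Ubx+Hth score of 32.4 (rank 5719). In the other direction, the best Ubx+Hth rank was 26, at 2L 5889490 to 5890402, where Ubx+Hth scored 315 and Abd-B 74.9 (rank 4360). At 2R 8746394 to 8746900 Ubx+Hth scored 289 (rank 57) and Abd-B 95.7 (rank 3201). The member at 3L 11341678 to 11342041 is of another kind. It is an Abd-B peak of 364 bp with a score of 27.6 that overlapped by 11.1% with a Ubx+Hth peak of 3274 bp scoring 261, and the relaxed peaks over it scored 248 and 160 for Ubx and 252 for Abd-A. No stringent Ubx or Abd-A peak of that strongly bound region overlapped it by the minimum, so it met the rule.

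At the thresholds themselves, the members closest to the limits had an Abd-B score of 10.5 (3L 17916815 to 17917070), a Ubx+Hth score of 10.0 (3L 21297340 to 21297971) and a reciprocal overlap of 5.62% (2L 14690081 to 14690482). Just outside, the Abd-B peak at 3R 10238354 to 10238685 overlapped a Ubx+Hth peak by 4.84%. The Abd-B peak at 2R 12048426 to 12049226, with a score of 149, was excluded by a Ubx peak of Experiment 1 that scored 10.04, and the one at 3L 17836105 to 17836794 by a Ubx peak of Experiment 2 that scored 10.1. In 3 members a stringent Ubx or Abd-A peak touched the Abd-B peak by less than 5%, the closest by 4.44% (2R 8814877 to 8815799).

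Abd-B peaks were wider than their partners. The median width was 483 bp for the members and 313 bp for the partners, and the median ratio of both widths was 1.47. The member was the wider peak at 905 sites (79.5%). The partner lay wholly inside the member at 591 sites (51.9%), the member inside the partner at 79, and both were staggered at 469. Abd-B and Ubx+Hth came from different read lengths and experiments, and whole-list medians of 598 and 483 bp differed in the same direction, so the share of the width difference due to the proteins cannot be told apart from that of the libraries. The widest member was 4548 bp, at 2L 14393200 to 14397747, with a partner of 434 bp. The narrowest were the 252 bp peaks at 3L 3397524 to 3397775 and 3L 16666566 to 16666817, near the narrowest width in the whole Abd-B list (251 bp).

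The midpoints of both peaks lay close together, with no preferred side. The median distance was 78 bp (quartiles 30 and 182 bp). It was at most 50 bp at 442 sites and at most 100 bp at 659 (57.9%), and exceeded 500 bp at 40. The Ubx+Hth midpoint lay to the right of the Abd-B midpoint at 567 sites and to the left at 570, with 2 at exactly 0. The largest shift was 1604 bp, at X 13283386 to 13283903, where a 518 bp Abd-B peak met the edge of a Ubx+Hth peak of 3346 bp. The median reciprocal overlap was 56.5%. At the peaks with all 4 partners the median distance was 97 bp and the median overlap 75.5%, and widths there correlated between both lists with a Spearman coefficient of 0.72 against 0.23 among the members.

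**Figure D2:**
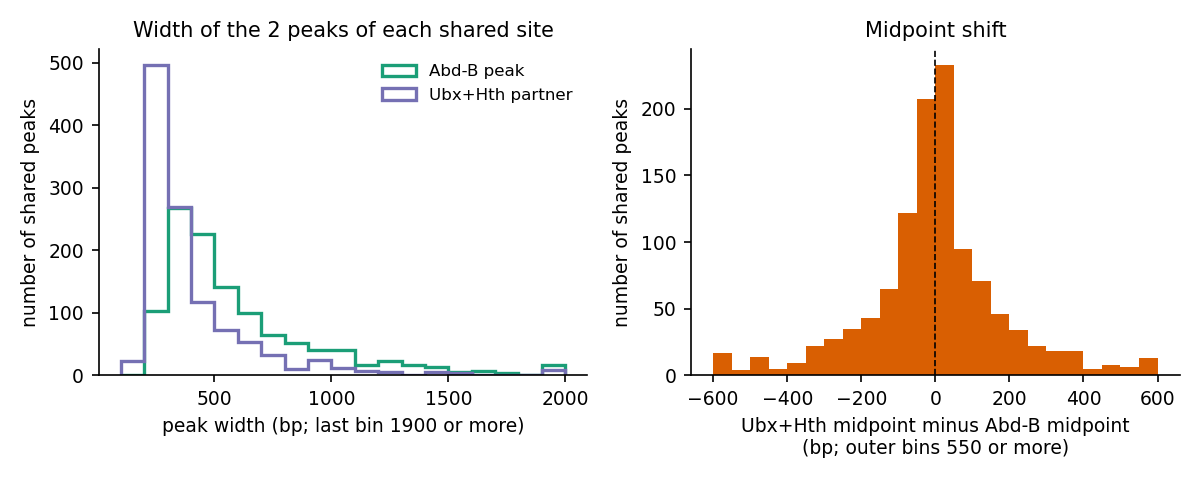
Left, number of members by width in bp of the Abd-B peak and of its Ubx+Hth partner (the last bin holds 1900 bp or more). Right, number of members by midpoint shift in bp, Ubx+Hth minus Abd-B (the outer bins hold 550 bp or more): the medians of the widths are 483 and 313 bp, and the shifts are centred on 0 with a median distance of 78 bp.

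Most members carried weaker calls for the proteins that the stringent rule excluded. In the relaxed lists, 852 members (74.8%, Wilson 72.2 to 77.2%) had a partner for Ubx of Experiment 1, beside 74.7% of all Abd-B peaks. For Ubx of Experiment 2 the number was 812 (71.3%, 68.6 to 73.8%), beside 69.8%. For Abd-A it was 970 (85.2%, 83.0 to 87.1%), beside 80.4%. At least 1 of the 3 relaxed lists held a partner for the 1032 members named above (90.6%, 88.8 to 92.2%), beside 83.2% of all Abd-B peaks. All Abd-B peaks include those with stringent Ubx and Abd-A calls, which are a large part of the list. The totals hide a crossing along the list. In the strongest quintile of the Abd-B list at least 1 of the 3 held a partner for 93.5% of all Abd-B peaks and 82.8% of members. In the weakest it was 65.8 and 91.1%. Among all Ubx+Hth peaks the share was 94.3%. These are the libraries that the rule used, and the shares describe the set.

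Such calls were less common at the sites that a single condition held. The rule itself separates these sets from the members by a second stringent call, so the contrast describes the selection and is not a test. Among Abd-B alone, 51.0% had a relaxed partner in at least 1 of the 3 lists, with 30.9% and 24.3% for Ubx in Experiments 1 and 2 and 44.6% for Abd-A. Among Ubx+Hth alone it was 62.7%, with 36.9%, 42.9% and 48.4%. The order of members and Abd-B alone was the same in each quintile of the Abd-B list. This split takes account of the Abd-B score only and not of the Ubx+Hth call that separates the sets. From the strongest to the weakest quintile of the Abd-B list, 82.8, 93.3, 91.1, 91.3 and 91.1% of members had a relaxed Ubx or Abd-A partner, against 42.6, 46.5, 51.9, 56.9 and 49.0% of Abd-B alone.

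**Figure D3:**
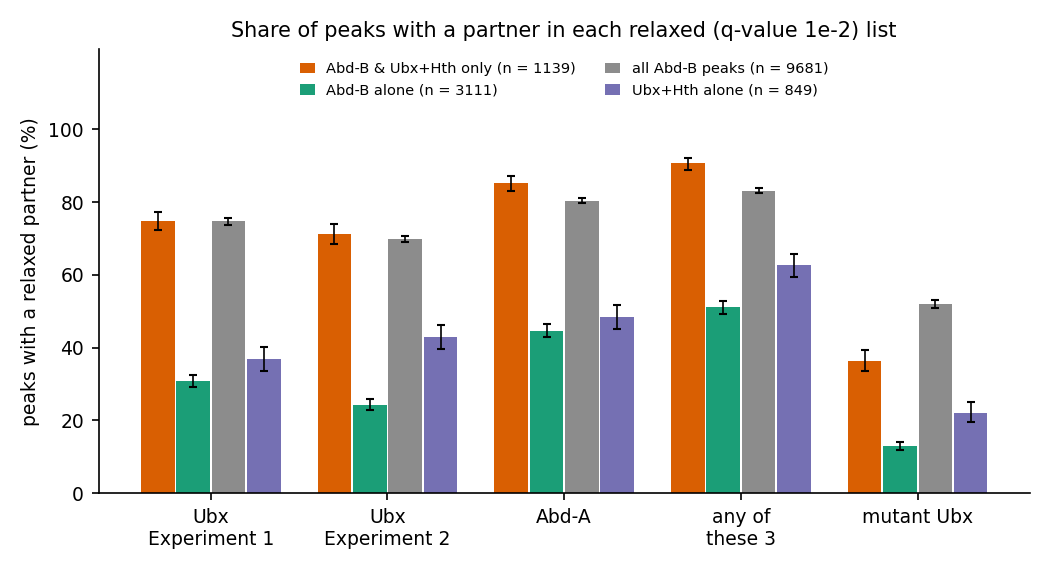
Bars give the share (%) of peaks with a partner in each relaxed list, for the 1139 members, Abd-B alone, all Abd-B peaks and Ubx+Hth alone, with Wilson 95% intervals that cover the counting of peaks only. The members are close to all Abd-B peaks for Ubx and Abd-A (90.6% and 83.2% for any of these 3) and below them for mutant Ubx (36.4% and 52.0%).

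The relaxed calls were shared between lists. There were 676 members (59.4%) with a partner in all 3 relaxed lists, 250 in 2, 106 in 1 and 107 (9.39%) in none. The commonest incomplete combinations were Ubx of Experiment 1 with Abd-A (143 members), Ubx of Experiment 2 with Abd-A (86) and Abd-A alone (65). Both Ubx experiments had a relaxed partner at 697 members (61.2%), Experiment 1 only at 155, Experiment 2 only at 115 and neither at 172. These 2 lists are of the same protein without Hth, so at 270 members the relaxed call for Ubx depended on the experiment, which differed in read length and number of replicates.

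Many of the relaxed calls reached the nominal stringent score but stood low in their own lists. The median score of the relaxed partners was 10.7 for Ubx of Experiment 1, 10.1 for Ubx of Experiment 2 and 13.3 for Abd-A, against a nominal limit of 10 for the stringent lists. Their median ranks were 72.5, 67.6 and 67.5% of the way down those relaxed lists. Of the members with a partner in each list, 56.1, 53.0 and 70.4% had one scoring at least 10. In the whole relaxed lists 6448 of 8604, 6008 of 8672 and 6991 of 9029 peaks did. In total 817 members (71.7%) had a Ubx or Abd-A partner with a score of at least 10 in a relaxed list, and 322 (28.3%, Wilson 25.7 to 31.0%) had none. The matching share of all Abd-B peaks was not counted. Of the 477 relaxed Ubx peaks of Experiment 1 with such a score at members, 445 contained no stringent peak of that list. For Ubx of Experiment 2 the numbers were 432 and 397, and for Abd-A 677 and 593. This held for the lists as a whole: the relaxed list of Ubx in Experiment 1 had 6448 peaks scoring at least 10 and the stringent list 4830 peaks. A score of 10 in a relaxed list was thus not sufficient for a stringent call, and the reason was not tested. The 322 members with no partner scoring at least 10 did not all lack Ubx and Abd-A calls. Of them, 66.8% had a relaxed partner with a lower score, and 107 members had no relaxed partner in the 3 lists. Ubx+Hth was also sequenced more deeply than Ubx in either experiment. The addition of Hth and the depth of its library therefore cannot be told apart in these counts. Within Experiment 1, Abd-B was sequenced more deeply than Ubx and Abd-A.

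Some relaxed partners were broad regions with a stringent peak elsewhere in them. At 101 members a relaxed Ubx or Abd-A partner contained a stringent peak of its own list that was not a partner of the member. For Abd-A this was so at 86 members, and at 38 the relaxed Abd-A partner scored 48 or more. The edge of the nearest stringent Ubx or Abd-A peak lay at a median of 3442 bp from the members (quartiles 1356 and 8516 bp), with 97 members (8.52%, 7.03 to 10.3%) within 500 bp. For Abd-B alone the median was 4065 bp and 4.53% (3.86 to 5.32%) lay within 500 bp.

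**Figure D4:**
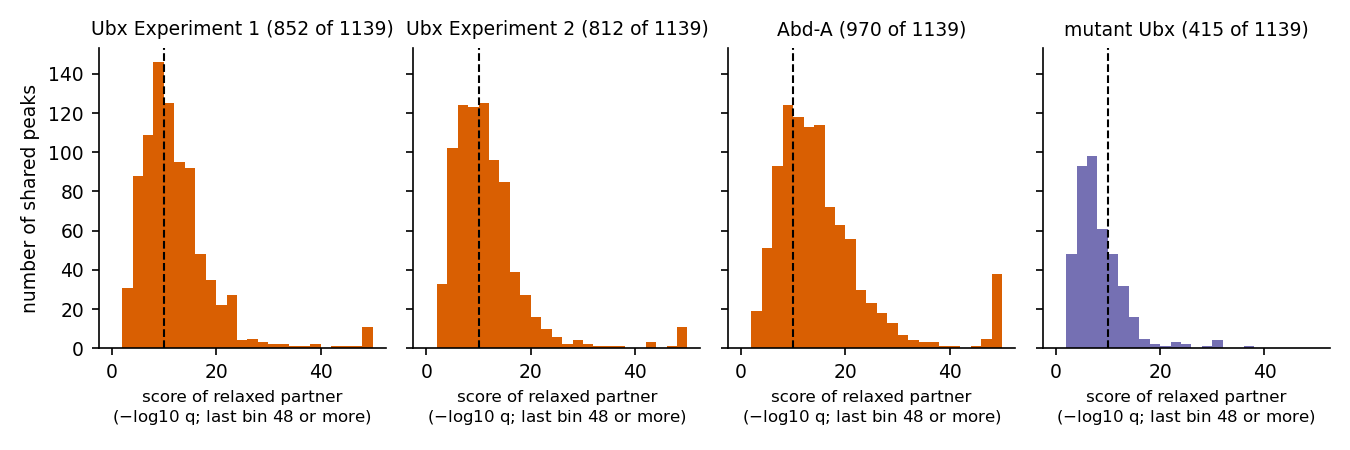
Number of members by the score (−log10 q) of their partner in each relaxed list (titles give how many of the 1139 had one), with the nominal stringent limit of 10 as a dashed line and scores of 48 or more in the last bin. The medians of the 3 excluded lists lie at or above that line (10.7, 10.1 and 13.3), and the median of mutant Ubx lies below it (7.35).

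The mutant Ubx list played no part in the choice of members, but it shares the input with every other list. It also shares Experiment 2, the 100 bp reads and a greater depth with Ubx+Hth. Every member has a stringent Ubx+Hth peak and Abd-B alone has none, so the effect of this on their shares cannot be told apart. At the stringent q-value, 14 members (1.23%, Wilson 0.734 to 2.05%) had a mutant partner, beside 14.6% of all Abd-B peaks. At the relaxed q-value the number was 415 (36.4%, 33.7 to 39.3%), beside 52.0% of all Abd-B peaks, 13.0% (11.8 to 14.2%) of Abd-B alone, 22.1% (19.5 to 25.1%) of Ubx+Hth alone and 92.3% of the peaks with all 4 partners. Of all Ubx+Hth peaks, 64.5% (63.5 to 65.6%) had a relaxed mutant partner. These counting intervals do not overlap for the sets as a whole, but some do by quintile of the Ubx+Hth list, as given below. The share of members also depended on the excluding lists. It was 16.5% of 322 members where relaxed Ubx and Abd-A peaks with a score of at least 10 also excluded, 2.80% of 107 where all relaxed peaks did, and 5.54% of 758 with q-values of 1e-2 throughout. With Abd-B alone held to the same exclusion, its share was 6.98% (6.00 to 8.11%) in the first case, below that of the members (12.8 to 20.9%), and 1.90% (1.33 to 2.72%) in the second, where both intervals overlap. The mutant scores at members were low, with a median of 7.35 and a highest value of 37.3. Peaks are not replicates of a condition, and how far these shares would vary between cultures is not known.

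The share with a mutant partner did not fall with the Abd-B score among members as it did in the whole list, and was lowest among the strongest members. From the strongest to the weakest quintile it was 21.6, 40.0, 35.4, 39.2 and 38.4% of members and 74.3, 66.8, 52.6, 42.0 and 24.4% of all Abd-B peaks. In Abd-B alone it was 4.92, 11.0, 13.6, 18.3 and 10.7%. The members thus lay below the whole list in the 3 strongest quintiles, next to it in the fourth and above it in the weakest. A related set is the 1374 Ubx+Hth peaks that met the rule with the roles exchanged. By quintile of the Ubx+Hth list, the share of these with a relaxed mutant partner was 25.4, 26.9, 33.3, 38.1 and 34.1%. It was 26.3, 15.2, 26.1, 27.0 and 18.6% of Ubx+Hth alone, and 88.8, 76.3, 64.8, 53.1 and 39.6% of all Ubx+Hth peaks. The intervals of the 1374 peaks and of Ubx+Hth alone overlapped in the 3 strongest quintiles.

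**Figure D5:**
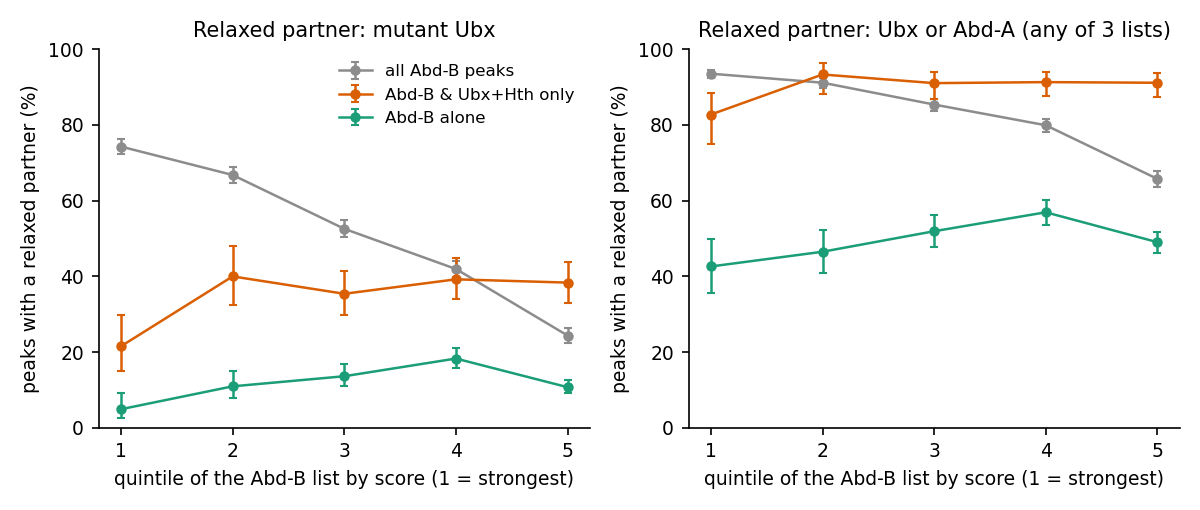
Share of peaks (%) with a relaxed mutant Ubx partner (left) and with a relaxed Ubx or Abd-A partner in at least 1 of 3 lists (right), by quintile of the Abd-B list from strongest (1) to weakest (5), with Wilson 95% intervals. In all 5 quintiles the members lie above Abd-B alone. For the mutant the line of all Abd-B peaks falls from 74.3 to 24.4% and crosses that of the members, which runs from 21.6 to 38.4%.

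Mutant calls went together with relaxed calls for wild type Ubx and Abd-A. They were found at 3 of the 107 members with no relaxed partner in the 3 lists (2.80%, Wilson 0.958 to 7.92%), at 19.8% of those with 1, 26.0% of those with 2 and 48.2% (44.5 to 52.0%) of those with 3. Of the 415 members with a mutant call, 358 also had one for Ubx of Experiment 2, and 57 (5.00% of all members) had not. Both came from the same experiment, but Ubx had 1 replicate against 2 for the mutant and was sequenced less deeply. The effect of this difference on the 57 was not tested. The highest mutant score was at 3L 21561858 to 21562521, with 37.3 for the mutant beside 60.1 for Abd-B, 39.2 for Ubx+Hth and relaxed scores of 7.84 and 10.7 for Ubx and 13.2 for Abd-A. On chromosome 4 at 930337 to 930694 the mutant scored 31.7, and at 2L 294645 to 295247 it scored 31.7 as well. At these sites the mutant peak ranked within the top 6% of the relaxed mutant list, while the relaxed Ubx and Abd-A peaks ranked in the middle or lower parts of theirs.

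The 107 members with no relaxed Ubx or Abd-A call were not the weakest. Their median rank was 60.4% in the Abd-B list and 70.1% in the Ubx+Hth list, against 61.8% and 76.1% for the 676 members with all 3. Their Abd-B scores ran from 10.5 through 55.2 to 259. Their peaks were wider (median 541 bp against 474 bp), and the midpoints of both peaks lay farther apart (116 bp against 63.8 bp). The 106 members with 1 relaxed partner had medians of 506.5 bp and 116 bp, so the larger distance was not particular to the 107. Besides the 2L and 2R sites given above, the smallest rank sums among them belonged to 2R 18426303 to 18426863 (Abd-B 145, Ubx+Hth 107), 3R 10120290 to 10121224 (127 and 96.6) and 3R 10260928 to 10261557 (168 and 67.7), a selection made after the values were seen. With the mutant list added, 104 members (9.13%) had no call for any other condition at either threshold.

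The members were spread over the chromosome arms much as Abd-B peaks were. There were 208 on 2L, 214 on 2R, 227 on 3L, 290 on 3R, 184 on X and 16 on chromosome 4. As a share of the Abd-B peaks of each arm this was 12.2, 11.3, 11.2, 12.4 and 11.2% on the large arms. On chromosome 4 it was 18.2% of 88 peaks, with an interval of 11.5 to 27.5% that overlaps those of the other arms. All 16 members on chromosome 4 had a relaxed Ubx or Abd-A partner, the best of them at 807906 to 808476 with an Abd-B score of 80.2 and a Ubx+Hth score of 92.8. On the large arms the share with such a partner ran from 88.3% on 3R to 94.0% on X, and the share with a mutant partner from 32.7% on 2L to 41.1% on 2R, with overlapping intervals in both cases. Chromosome 4 had 3 of 16 with a mutant partner.

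Another member lay within 10 kb, between midpoints, of 378 of the 1139 members (33.2%, Wilson 30.5 to 36.0%). Abd-B peaks in general are dense, and 89.6% of them had another Abd-B peak within the same distance, so this share is read beside the kind of neighbour. The nearest Abd-B neighbour was itself a member for 184 of the members (16.2%, 14.1 to 18.4%). It was a member for 11.5% (10.4 to 12.7%) of Abd-B alone and 11.7% (10.6 to 12.8%) of the peaks with all 4 partners, close to the 11.8% of the list that members make up. The median distance from a member to the next was 23044 bp. Neighbouring peaks of 1 locus are not independent of each other.

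Chained at 10 kb, the 378 members formed 169 groups, of which 138 had 2 members, 22 had 3 and 9 had 4. The group of 4 on 3R from 5937819 to 5946158 holds the site with the smallest rank sum. Its members had Abd-B scores of 31.5, 255, 28.8 and 60.8 in order along the chromosome and Ubx+Hth scores of 44.7, 216, 181 and 42.7, so the site at 5943728 to 5944053 was strong for Ubx+Hth and weak for Abd-B. The region held 5 Abd-B peaks in all, of which 1 was Abd-B alone. A second group of 4 on 3R, from 19843613 to 19854131, holds the member with the best Abd-B rank, and there Abd-B scores ran from 38.6 to 359 and Ubx+Hth scores from 14.9 to 72.5. The group on 2L, from 14375586 to 14397747, consisted of members only, with Abd-B scores of 79.3 to 250 and Ubx+Hth scores of 28.1 to 85.4, and 2 of its 4 members had no relaxed Ubx or Abd-A partner. Of the 9 groups of 4, these have the smallest rank sums, an order set after their sizes were found to be equal. Chained at 50 kb, the largest group had 13 members, on 2L from 4949631 to 5092282, among 33 Abd-B peaks of which 10 had all 4 partners and 5 were Abd-B alone.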

How the data were processed

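The deposited files are 12 lists of peaks from 6 conditions, each called at q-values of 1e-10 and 1e-2. The authors mapped paired reads to BDGP release 5 with Bowtie, kept uniquely mapped reads, combined replicates and ran MACS2 with the Experiment 1 input as control. The submitters' processing notes name Bowtie 1.0.1, MACS2 2.1.0.20140616, SAMtools 0.1.19 and bedtools 2.19.1. Scores were deposited as −log10 q-values. Read depth cannot be taken from the lists, and the libraries differed in it, which affects which weak sites pass. Ubx+Hth and mutant Ubx were sequenced more deeply than the rest, and Abd-B more deeply than Ubx and Abd-A of Experiment 1.

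Overlaps were counted in python 3.11.15 with numpy 2.4.6 and pandas 2.3.3, checked against bedtools 2.31.1 (equal in 60 of 60 comparisons) and tested on simulated data. Intervals are Wilson 95% intervals of the counting of peaks. Correlations were computed with scipy 1.17.1, and figures were drawn with matplotlib 3.10.9. No test between conditions was made, since replicates were combined. The members and lists were chosen with earlier results of these data known. The peaks named are the 10 smallest rank sums, the 3 best ranks in each list, the best of each chromosome, the members of the 3 largest groups, the 3 highest mutant scores, the widest, narrowest and most shifted members and those nearest each limit. Not all of them are printed. Alternatives were the overlap, the thresholds, the lengths of the lists, the merging of near peaks, the side counted and the distance between neighbours. Genes and sequences at the sites were not used here, because the only gene table used was built on release 6.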

Additional observations from a re-analysis of the deposited data

How the results depend on the processing

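No paired analysis was possible because replicates were combined before peak calling, and for the same reason no replicate could be left out. The count of 1139 was 1141 with any overlap and 1097 at 50% reciprocal overlap, where 697 of the 1139 members (61.2%) were kept. With a score of at least 20 in both lists it was 873, and counted as Ubx+Hth peaks 1374. It was 1139 with peaks closer than 100 bp merged, which joined no Abd-B peaks. It fell to 758 with q-values of 1e-2 throughout, 139 with lists of equal length, 107 with the excluding lists at 1e-2 and, in an alternative chosen after seeing the data, 322 where relaxed peaks with a score of at least 10 also excluded. Excluding on the Ubx+Hth partner too, also chosen later, left 1124.

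The 90.6% with a relaxed Ubx or Abd-A partner lay between 88.8 and 91.4% with the overlap, score, length, merging and side changed. It was 66.8% where relaxed peaks with a score of at least 10, called strong in this section only, also excluded. Where the excluding lists are the relaxed ones it is 0 by construction and was left out. The 36.4% with a relaxed mutant partner became 24.8% at 50% overlap, 5.54% with 1e-2 throughout, 2.80% with the excluding lists at 1e-2 and 16.5% where strong relaxed peaks also excluded. The comparison of the last 2 with Abd-B alone under the same exclusion was added after seeing the data. The 33.2% with another member within 10 kb became 30.4% at 50% overlap, 28.3% with scores of at least 20, 20.7% with 1e-2 throughout, 20.6% with the excluding lists at 1e-2, 9.35% with lists of equal length, 40.6% counted as Ubx+Hth peaks, 17.7% where strong relaxed peaks also excluded, 22.6% at 5 kb and 69.9% at 50 kb. With fewer members, fewer neighbours are possible.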
